A study of Homo sapiens with 8 samples.

Results

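The G1 cyclins and the CDK inhibitors that act on them were examined across 2 HER2+ breast cancer cell lines. The 10 genes were taken from a fixed list by symbol: the D-type cyclins CCND1, CCND2 and CCND3, the E-type cyclins CCNE1 and CCNE2, the CIP/KIP inhibitors CDKN1A, CDKN1B and CDKN1C, and the INK4 inhibitors CDKN2B and CDKN2C. Each was listed once among the 20531 genes of every table. SKBR-3 is a HER2+ breast carcinoma line without estrogen or progesterone receptors, and BT474m1 is a HER2+ derivative of BT474 that carries both. Each line was grown in RPMI with 10% serum and exposed for 48 h, per the labels, to the vehicle DMSO, to 300 nM of lapatinib, which blocks the HER2 and EGFR kinases, to 300 nM of JQ1, which displaces BET bromodomain proteins from chromatin, or to the 2 drugs at once at these doses. All 8 groups held 1 library each, so that no value has a spread between replicates.

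On the reference genome (RefSeq, GRCh38.p14), which locates the genes and not the reads, CCND1 lies at chr11:69641156-69654474, CCND3 at chr6:41934933-42050035 and CCNE1 at chr19:29811991-29824312. Of the inhibitors, CDKN1A lies at chr6:36676463-36687332, CDKN1B at chr12:12717368-12722369 and CDKN1C at chr11:2883218-2885775, with CDKN2B at chr9:22002903-22009313 and CDKN2C at chr1:50960745-50974634.

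Cyclins bind and switch on cyclin-dependent kinases. D-type cyclins act with CDK4 and CDK6 and are the arm of the cell cycle engine that growth factor receptors such as HER2 drive, whereas E-type cyclins act with CDK2 at the entry to S phase, and both phosphorylate the retinoblastoma protein to free E2F factors. INK4 proteins block CDK4 and CDK6 alone, CIP/KIP proteins bind a wider set of cyclin-CDK complexes, and in HER2+ cells the CIP/KIP protein p27 is known for its part in arrest when HER2 signalling is blocked.

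Levels are given as normalised read counts, for which the authors set the upper quartile of each library to 1000, and 1 read was worth 0.471 to 0.766 units. The depth ran from 21420113 to 34112379 reads on genes. A log2 change is the difference of log2(value + 1), counted as a rise or a fall from 2-fold upwards on that scale. Changes written as folds are ratios of the values themselves, with nothing added, and are larger than the log2 change gives for low values. The 95% intervals (Clopper-Pearson) cover counting error only. Of the markers of HER2+ luminal cells, ERBB2 stood at 94678 or more and KRT8 at 24517 or more in all 8 libraries. SKBR-3 held almost no CDH1 (E-cadherin, 2.58 to 15.1) and BT474m1 much (19414 to 24373). Of 12 markers of leukocytes, endothelium, fibroblasts and basal cells, 8 stayed at or below 14.1 in every library, PTPRC, PECAM1 and COL3A1 among them, while CD68 reached 407 in SKBR-3. The others were highest in BT474m1, where COL1A1 reached 1253, VWF 153 with DMSO against 5.25 with both drugs, and TP63 38.2. Line and any sequencing batch cannot be told apart.

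CCND1, the D-type cyclin best known as a target of growth factor signalling, fell in both lines with the 2 drugs together. The normalised read count of CCND1 in SKBR-3 was 4989 with DMSO. It was 1425 after lapatinib, 8960 after JQ1 and 940 after both drugs. In BT474m1 it was 6358, 3290, 3569 and 706 in the same order. The library with both drugs was the lowest of each line, and the library with JQ1 was the highest of SKBR-3 but not of BT474m1. Lapatinib lowered CCND1 3.5-fold in SKBR-3 (log2 change -1.81, 95% interval -1.88 to -1.73). In BT474m1 the log2 change with lapatinib was -0.95 (-0.996 to -0.905), just short of 2-fold, and it reached 2-fold with scaling by the median of ratios. JQ1 alone left CCND1 0.84 above DMSO on the log2 scale in SKBR-3 (0.80 to 0.89) and 0.83 below it in BT474m1 (log2 change -0.83, -0.87 to -0.79), both short of 2-fold. With both drugs CCND1 fell 5.31-fold in SKBR-3 and 9-fold in BT474m1 (log2 changes -2.41 and -3.17). These are values of whole cultures, in which fewer cells with a transcript and less transcript per cell cannot be told apart.

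CCND3, the other D-type cyclin present in both lines, moved less. In SKBR-3 it stood at 1213 (DMSO), 666 (lapatinib), 1216 (JQ1) and 530 (both drugs). The BT474m1 values were 601, 407, 800 and 514. Only the fall with both drugs in SKBR-3 reached 2-fold (log2 change -1.19, -1.32 to -1.07). In BT474m1 the highest value came with JQ1 (log2 change 0.41, 0.31 to 0.52) and the lowest with lapatinib (-0.56, -0.70 to -0.42). CCND2 had 0 reads in all 4 SKBR-3 libraries, which allows up to 1.93 to 2.30 units there. In BT474m1 it had 9, 9, 2 and 5 reads with DMSO, lapatinib, JQ1 and both drugs. CCND2 was thus the member that missed the filter of 10 units in at least 1 library, and changes are counted over the other 9. Its ratio of JQ1 to DMSO in BT474m1 was 0.228 with a counting interval of 0.0239 to 1.1, so that no difference was detectable at this depth.

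CCNE2 fell with lapatinib by a like factor in both lines. Its SKBR-3 values were 232 (DMSO), 33.5 (lapatinib), 271 (JQ1) and 37.2 (both drugs). In BT474m1 they were 1542, 195, 1441 and 510. Lapatinib lowered CCNE2 6.92-fold in SKBR-3 (log2 change -2.75, -3.27 to -2.32) and 7.89-fold in BT474m1 (-2.97, -3.15 to -2.82). JQ1 alone gave log2 changes of 0.22 and -0.098. Both drugs lowered CCNE2 6.22-fold in SKBR-3 and 3.03-fold in BT474m1. In BT474m1 CCNE2 was therefore 2.61-fold higher with both drugs than with lapatinib alone (log2 difference 1.38, 1.20 to 1.57), against a log2 difference of 0.15 (-0.46 to 0.75) in SKBR-3. On the reference genome CCNE2 overlaps INTS8 and NDUFAF6, and the sources differ on whether the library kit kept the strand, so that reads of the shared stretches may be divided among them.

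CCNE1 moved the same way with lapatinib but by less. Its values in SKBR-3 were 410, 155, 399 and 111 with DMSO, lapatinib, JQ1 and both drugs, and in BT474m1 they were 227, 123, 188 and 121. In both lines the 2 libraries with lapatinib lay below the 2 without it. CCNE1 fell 2.64-fold with lapatinib and 3.7-fold with both drugs in SKBR-3. The changes in BT474m1 stayed short of 2-fold (log2 -0.87 and -0.90).

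**Figure D1:**
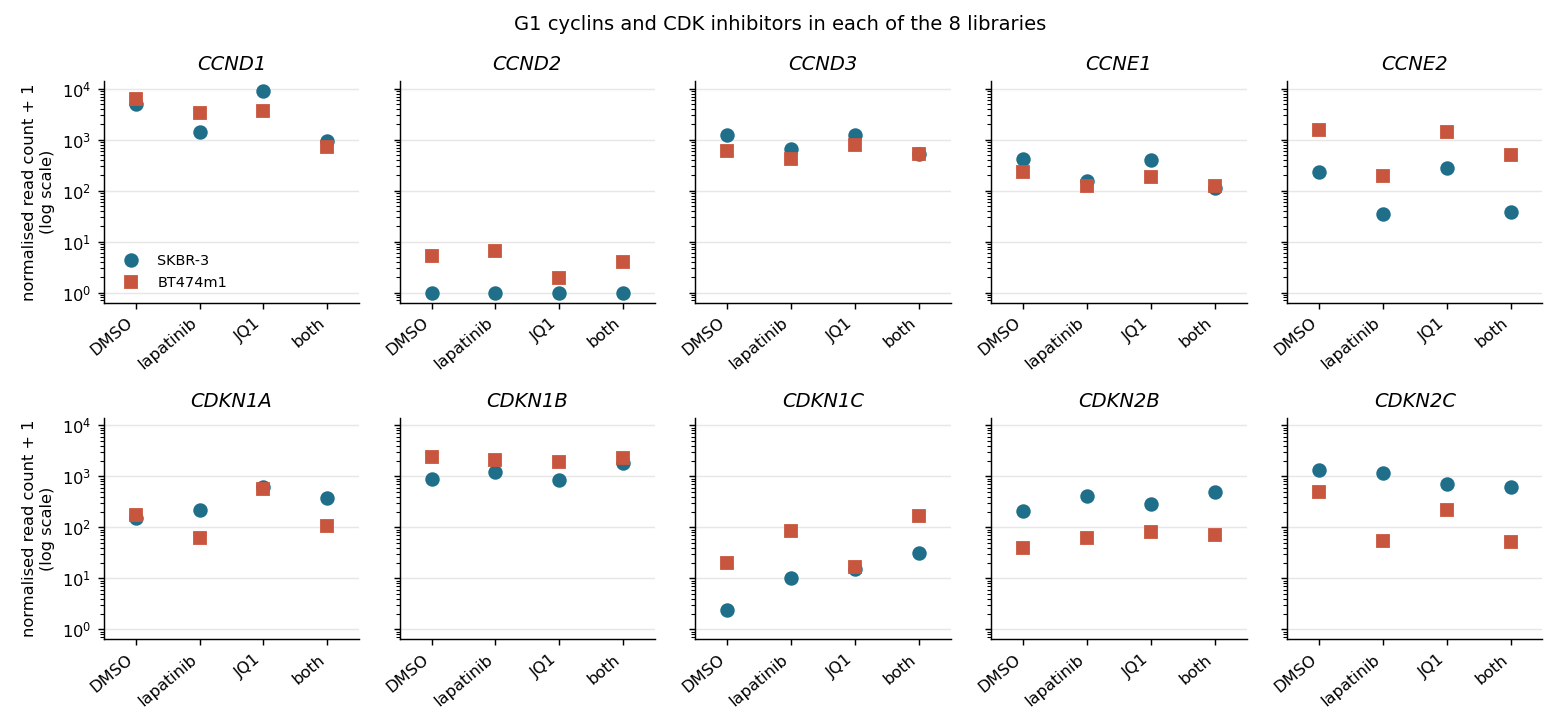
Normalised read count plus 1 (log scale) of each member in the 8 libraries, with SKBR-3 as circles and BT474m1 as squares; each point is 1 library. CCND1 is lowest with both drugs in each line (940 and 706), CCNE2 drops wherever lapatinib is present, and CCND2 is at 0 in SKBR-3.

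Promoter sequences from RefSeq were at hand for CCND3, CCNE1, CDKN1A, CDKN1B, CDKN2B and CDKN2C, and not for CCND1, CCND2, CCNE2 or CDKN1C. CCND3 and CCNE1 are shown because their values ran closely together over the 8 libraries, and CDKN2C, described further on, because it holds the other motif match. The bases cover the 240 before the start site and the first 10 after it, in GRCh38.p14. Capitals mark a forkhead word (GTAAACA) in CCND3, where it crosses the start site, and an E-box (CACGTG) in CDKN2C.
CCND3, chr6:42048679-42048928, minus strand: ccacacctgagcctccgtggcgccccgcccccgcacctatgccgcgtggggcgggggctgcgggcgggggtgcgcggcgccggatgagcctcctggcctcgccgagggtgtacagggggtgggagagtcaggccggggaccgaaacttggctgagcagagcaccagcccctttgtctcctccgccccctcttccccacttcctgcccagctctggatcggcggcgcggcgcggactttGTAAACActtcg
CCNE1, chr19:29811751-29812000, plus strand: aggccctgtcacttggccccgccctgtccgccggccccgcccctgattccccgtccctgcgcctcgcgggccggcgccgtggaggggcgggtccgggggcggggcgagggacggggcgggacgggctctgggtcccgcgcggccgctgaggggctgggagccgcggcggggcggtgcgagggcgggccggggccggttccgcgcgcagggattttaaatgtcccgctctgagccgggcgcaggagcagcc
CDKN2C, chr1:50960505-50960754, plus strand: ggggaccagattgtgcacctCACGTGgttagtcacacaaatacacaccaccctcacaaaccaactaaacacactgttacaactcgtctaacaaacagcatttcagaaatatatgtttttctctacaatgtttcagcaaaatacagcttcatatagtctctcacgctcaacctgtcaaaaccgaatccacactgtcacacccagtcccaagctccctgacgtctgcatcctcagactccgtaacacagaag
The following motifs were searched on both strands of the whole 300 bases of each promoter table entry. These were E2F words (TTTGGCGC, TTTCCCGC, TTTGCCGC or TTTCGCGC), forkhead words (GTAAACA or GTCAACA), the E-box CACGTG and the p53 half-site by name. They were present in 3.31%, 5.62%, 7.26% and 6.63% of all 35116 promoters. Besides the words in capitals, no match lay in the 6 members' windows. The GC content of the bases shown was 72.0% for CCND3, 80.4% for CCNE1 and 44.8% for CDKN2C, against a median of 58.4% over all promoters (quartiles 46.4% and 68.0%). It was 75.6% for CDKN1A, 66.0% for CDKN1B and 68.0% for CDKN2B in the same stretch.

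The CIP/KIP inhibitors did not move as a group. CDKN1A encodes p21, which p53 and other signals induce. Its normalised read count in SKBR-3 was 155 (DMSO), 214 (lapatinib), 604 (JQ1) and 371 (both drugs). In BT474m1 it was 177, 60.8, 552 and 106. The lines were nearly level with DMSO and with JQ1, and they parted wherever lapatinib was present. JQ1 raised CDKN1A 3.91-fold in SKBR-3 (log2 change 1.96, 1.75 to 2.19) and 3.12-fold in BT474m1 (1.64, 1.47 to 1.81), above the change of 99.2% and 98.5% of the genes kept. Lapatinib lowered it 2.91-fold in BT474m1 (log2 change -1.52, -1.87 to -1.22), and the log2 change in SKBR-3 was 0.47 (0.21 to 0.73). With both drugs it rose 2.4-fold in SKBR-3 (log2 change 1.26) and stood below DMSO in BT474m1 (-0.74, -1.01 to -0.49).

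CDKN1B, which encodes p27, moved little in BT474m1 at the RNA level. Its SKBR-3 values were 892, 1207, 857 and 1793 with DMSO, lapatinib, JQ1 and both drugs. In BT474m1 all 4 libraries lay between 1952 and 2429, above every SKBR-3 library. The rise with both drugs in SKBR-3 was 2.01-fold (log2 change 1.01, 0.91 to 1.11), at the edge of the call, and it fell short of 2-fold with a pseudocount of 10 or with equal totals. The log2 change with both drugs in BT474m1 was -0.081.

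CDKN1C, which encodes p57 and is an imprinted gene in many tissues, was read few times in SKBR-3 and rose with both drugs in each line. In SKBR-3 it was read 2, 12, 22 and 44 times with DMSO, lapatinib, JQ1 and both drugs, or 1.43, 9.19, 14.2 and 30.3 units. In BT474m1 it stood at 19.3, 84.9, 15.5 and 164 units. It was highest with both drugs in each line. Lapatinib raised CDKN1C 4.39-fold in BT474m1 (log2 change 2.08, 1.62 to 2.67) and both drugs raised it 8.51-fold (3.02, 2.61 to 3.60). In SKBR-3 the ratio to DMSO was 6.42 with lapatinib, with a counting interval of 1.43 to 59.0. It was 9.9 with JQ1 (2.43 to 86.9) and 21.1 with both drugs (5.52 to 180.0). All 3 rest on the 2 reads with DMSO, fewer than the floor of 3, and a pseudocount of 10 brought the log2 change from 2.64 to 1.08 with JQ1 and from 3.68 to 1.82 with both drugs, and took that with lapatinib below 2-fold. JQ1 alone gave a log2 change of -0.30 in BT474m1 (-1.04 to 0.38), which counting error covers.

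The INK4 inhibitors lay on opposite sides of DMSO, CDKN2B above it and CDKN2C below it in all treated libraries. CDKN2B encodes p15, a known target of TGF-beta signalling. It stood at 209, 407, 292 and 492 in SKBR-3 with DMSO, lapatinib, JQ1 and both drugs, and at 38.3, 59.8, 78.5 and 71.2 in BT474m1. DMSO was the lowest library of each line, and every SKBR-3 library lay above every BT474m1 library. It rose 2.36-fold with both drugs in SKBR-3 (log2 change 1.23, 1.04 to 1.44). In BT474m1 it rose 2.05-fold with JQ1 (1.01, 0.64 to 1.44), a call that ended with a pseudocount of 10 or equal totals. The antisense gene CDKN2B-AS1, which overlaps it, was listed at 0 to 15.3 units.

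CDKN2C encodes p18, an inhibitor of CDK4 and CDK6. Its SKBR-3 values were 1316, 1139, 694 and 620 with DMSO, lapatinib, JQ1 and both drugs, and its BT474m1 values were 499, 52.4, 222 and 50.1. In BT474m1 the 2 libraries with lapatinib were nearly equal and far below the others, whereas in SKBR-3 the 2 libraries with JQ1 were the lower pair. Lapatinib lowered CDKN2C 9.53-fold in BT474m1 (log2 change -3.23, -3.58 to -2.94), against a log2 change of -0.21 (-0.31 to -0.11) in SKBR-3. JQ1 lowered it 2.25-fold in BT474m1 and gave a log2 change of -0.92 in SKBR-3, which passed 2-fold with equal totals (-1.07). With both drugs it fell 9.96-fold in BT474m1 and 2.12-fold in SKBR-3, and the SKBR-3 change came to -0.94 with scaling by the median of ratios.

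**Figure D2:**
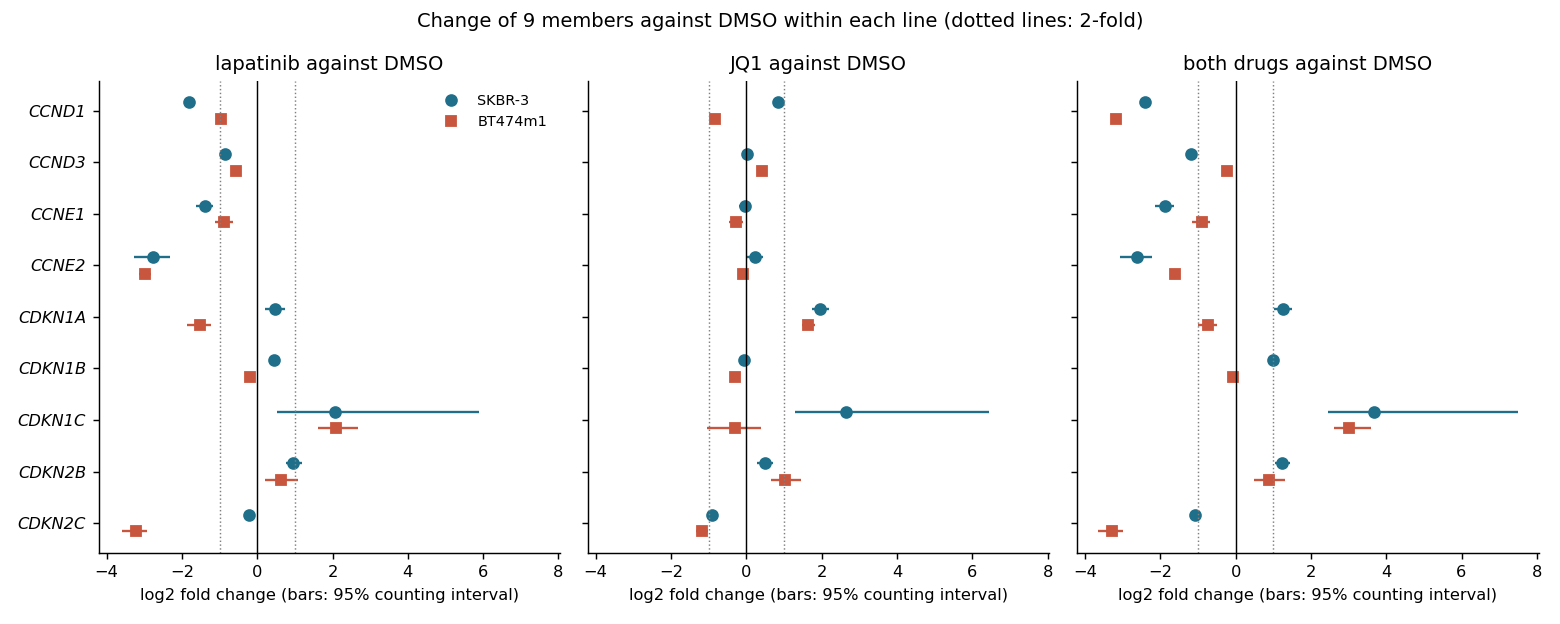
Log2 fold change against DMSO of the 9 members that passed the filter, with lapatinib, JQ1 and both drugs in turn; bars are 95% counting intervals and dotted lines mark 2-fold. The lines lie on opposite sides of 0 for CCND1 with JQ1 (0.84 and -0.83) and for CDKN1A with lapatinib (0.47 and -1.52), and CDKN1C carries the widest intervals.

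The counts of members past 2-fold are read against those of all 14429 genes that passed the filter. With lapatinib in SKBR-3, 1 of 9 members rose (CDKN1C) and 3 fell (CCND1, CCNE1 and CCNE2), where 11.1% of all genes rose and 9.44% fell. In BT474m1, 1 rose (CDKN1C) and 3 fell (CCNE2, CDKN1A and CDKN2C), against 14.0% and 8.06%. With JQ1 in SKBR-3, 2 rose (CDKN1A and CDKN1C) and 0 fell, against 3.75% and 11.8%. In BT474m1 JQ1 raised 2 (CDKN1A and CDKN2B) and lowered 1 (CDKN2C), against 4.81% and 11.8%. With both drugs all 9 moved past 2-fold in SKBR-3, 4 inhibitors upwards and all 4 measured cyclins with CDKN2C downwards, against 10.8% and 20.8% of all genes. In BT474m1, 1 rose (CDKN1C) and 3 fell (CCND1, CCNE2 and CDKN2C) with both drugs, against 14.2% and 15.3%. The count of 9 in SKBR-3 became 8 with a pseudocount of 10 or with either other scaling. These 3 treatments share the DMSO library of their line.

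A fit over both lines asked whether a change was large against the disagreement between the lines. It used limma with a term for the line and Benjamini-Hochberg adjustment over all genes kept, and its p-values do not measure the spread between cultures of 1 line. CCNE2 was the member that passed with lapatinib (limma adjusted p = 0.0125, mean log2 change -2.86, SE 0.36, lower in both lines), where 4.65% of all genes passed. With both drugs 4 members passed, where 18.4% of all genes did. They were CCND1 (limma adjusted p = 0.0155, mean -2.79, SE 0.52), CCNE1 (0.0366, -1.39, SE 0.35), CCNE2 (0.0121, -2.10, SE 0.36) and CDKN1C (0.0304, 3.36, SE 0.79), with the sign shared by the lines for each. With JQ1, 0 of 9 members passed and 0.0554% of all genes did. At an unadjusted limma p under 0.05 there was 1 member, CDKN1A (adjusted p = 0.205, mean 1.80, SE 0.55, higher in both lines). Of all 14429 genes, 2200 lay under 0.05 in that way. For both drugs against lapatinib 0 members passed, and 0.249% of all genes did. There 1 member had an unadjusted limma p under 0.05, as did 2501 of all genes. With lapatinib against DMSO 7 members and 3359 genes had such a p. With both drugs against DMSO it was 7 members and 5069 genes. The calls depended on the settings of the fit: 0 members remained with no filter on low values or with no term for the line, in lapatinib and in both drugs alike. Without the trend of variance on level, CCNE2 with both drugs was the 1 call left. Over the alternatives the limma adjusted p of CCNE2 with lapatinib ran from 0.00861 to 0.9999. With both drugs it ran to 0.177 for CCND1, 0.52 for CCNE1, 0.873 for CCNE2 and 0.613 for CDKN1C, and the lowest were 0.0124, 0.0348, 0.0108 and 0.0286.

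Adding JQ1 to lapatinib moved few members past 2-fold. In SKBR-3, 1 rose (CDKN1C, 3.29-fold) and 0 fell against lapatinib alone, where 3.22% of all genes rose and 16.2% fell. In BT474m1, 1 rose (CCNE2) and 1 fell (CCND1, 4.66-fold), against 5.2% and 12.5%. The level of CDKN1A under both drugs was 1.73-fold that under lapatinib in each line, short of a call. Adding lapatinib to JQ1 moved more of them. In SKBR-3, 2 rose (CDKN1B and CDKN1C) and 4 fell (CCND1, CCND3, CCNE1 and CCNE2), against 9.79% and 12.3% of all genes. Of these, CDKN1C (2.14-fold) was no longer past 2-fold with a pseudocount of 10. In BT474m1, 1 rose (CDKN1C, 10.6-fold) and 4 fell (CCND1, CCNE2, CDKN1A and CDKN2C), against 12.4% and 7.27%. CCND1 fell 9.54-fold in SKBR-3 and 5.05-fold in BT474m1 when lapatinib was added to JQ1. CDKN1A, 5.23-fold lower with both drugs than with JQ1 in BT474m1, had a log2 difference of -0.70 (-0.86 to -0.55) in SKBR-3.

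To see how far the drugs added up, the change with both was compared with the 2 single-drug log2 changes added together. CCND1 lay below that sum in both lines, by nearly the same amount (log2 differences of -1.44 in SKBR-3 and -1.39 in BT474m1), although the single-drug changes differed. In SKBR-3 that made 3 members at least 2-fold below the sum, with CDKN1A (-1.17) and CDKN1C (-1.02), where 7.58% of all genes lay so far below. No member lay so far above it, where 3.9% of all genes did. The CDKN1C difference rests on the 2 reads with DMSO and came to -0.011 with a pseudocount of 10. In BT474m1, CCND1 lay at least 2-fold below (4.73% of all genes) and 3 members lay above the sum (4.72%). The latter were CCNE2 (1.48), CDKN1C (1.25) and CDKN2C (1.10). CCND3 stayed nearer to the sum in both lines (-0.33 and -0.078). Within a line these differences have no test. In the limma fit over both lines, a contrast chosen after seeing the data, the shared difference of CCND1 from the sum did not pass (adjusted p = 0.9999, mean -1.41, SE 0.73, below the sum in both lines). Of the 9 members 0 passed and 0 had an unadjusted limma p under 0.05, and 0.0% of all genes passed (80 genes at an unadjusted p under 0.05).

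**Figure D3:**
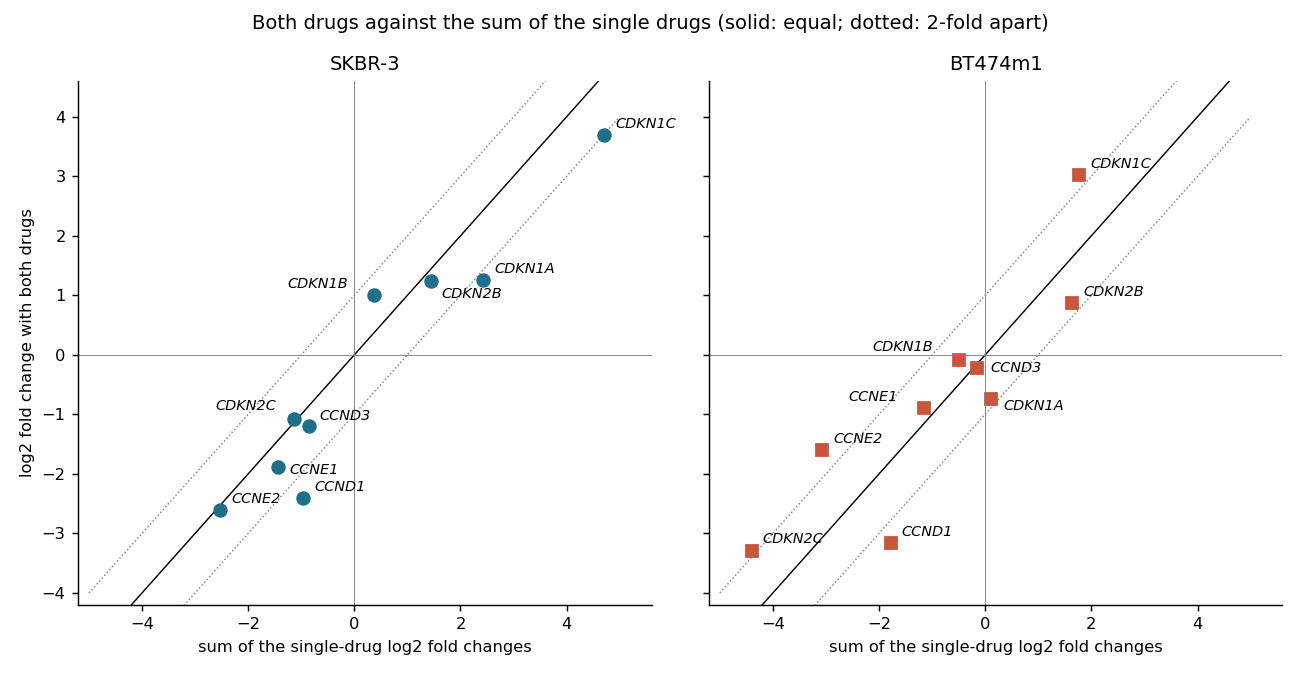
Log2 fold change with both drugs (vertical) against the sum of the lapatinib and JQ1 log2 fold changes (horizontal) for 9 members in each line; the solid line marks equality and dotted lines a 2-fold difference. CCND1 lies below the lower dotted line in both lines (-1.44 and -1.39), and CCNE2 lies above the upper one in BT474m1 (1.48).

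The lines already differed with DMSO. Of the 9 members, 3 were at least 2-fold higher in BT474m1 (CCNE2, CDKN1B and CDKN1C) and 3 at least 2-fold lower (CCND3, CDKN2B and CDKN2C), where 26.8% of all genes were higher and 15.6% lower. CCNE1 (log2 difference -0.85) joined the latter with scaling by the median of ratios. CCNE2 was 6.66-fold higher in BT474m1, and CDKN2B was 5.44-fold lower. CCND1 and CDKN1A lay close together in the lines with DMSO (log2 differences of 0.35 and 0.19). Across the 4 treatments the ranges of the lines did not overlap for CDKN1B, CDKN2B and CDKN2C, 3 of the 9, where 45.0% of all genes were separated in this way. The sign of the change was shared by the lines for 7 of the 9 members under lapatinib, for 6 under JQ1 and for 7 under both drugs. Over all genes the shares were 66.2%, 67.2% and 66.8%.

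Per kilobase of the longest coding transcript, the leading member changed with treatment. CCND1 led in 5 of the 8 libraries, CDKN2C in SKBR-3 with lapatinib, and CDKN1B in both libraries with both drugs. With the shortest coding transcript CCND1 led in 6, SKBR-3 with lapatinib included, and CDKN1B still led with both drugs. Within the D-type cyclins, the share of CCND1 per kilobase was 69.9% with DMSO and 50% with both drugs in SKBR-3, and 85.6% and 43.6% in BT474m1. The fall in this share held with the shortest transcript (78.5% to 61.1% and 90.4% to 54.9%), but there CCND1 stayed ahead of CCND3. The E-type cyclins were mostly CCNE1 in SKBR-3 (75.1% with DMSO, or 57.5% by the shortest transcript) and mostly CCNE2 in BT474m1 (79.9%, or 89.9%). With lapatinib the share of CCNE2 was 11.2% in SKBR-3 and 48.2% in BT474m1, or 22.0% and 67.5% by the shortest transcript. Among the CIP/KIP inhibitors CDKN1B held 64.2% or more in every library except SKBR-3 with JQ1, where CDKN1A reached 56.5% by the longest and 33.6% by the shortest transcript. The share of CDKN1C in BT474m1 was 1.54% with DMSO and 12.8% with both drugs, or 0.56% and 4.9% by the shortest transcript. CDKN2B was 5.47% of the INK4 pair with DMSO and 51.7% with both drugs in BT474m1, or 40.2% by the shortest transcript.

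The summed cyclins were set against the summed inhibitors on the same scale. In SKBR-3 the ratio of cyclins to inhibitors per kilobase was 2.51 (DMSO), 0.804 (lapatinib), 3.7 (JQ1) and 0.547 (both drugs). The BT474m1 ratios were 2.81, 1.79, 2.14 and 0.856. The order of the treatments was the same with the shortest transcript (3.91, 1.13, 6.32 and 0.666 in SKBR-3, and 3.11, 1.83, 2.44 and 0.746 in BT474m1). Both drugs gave the lowest ratio in each line, below 1 by either length. By the longest transcript, the cyclin sum was 1960 with DMSO and 511 with both drugs in SKBR-3, and 2330 and 597 in BT474m1. CCND1 made up 1180 and 1500 of the sums with DMSO. The inhibitor sum was 782 with DMSO and 934 with both drugs in SKBR-3, but 830 and 697 in BT474m1, where it did not rise. The ratio is one of RNA levels and not of proteins.

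**Figure D4:**
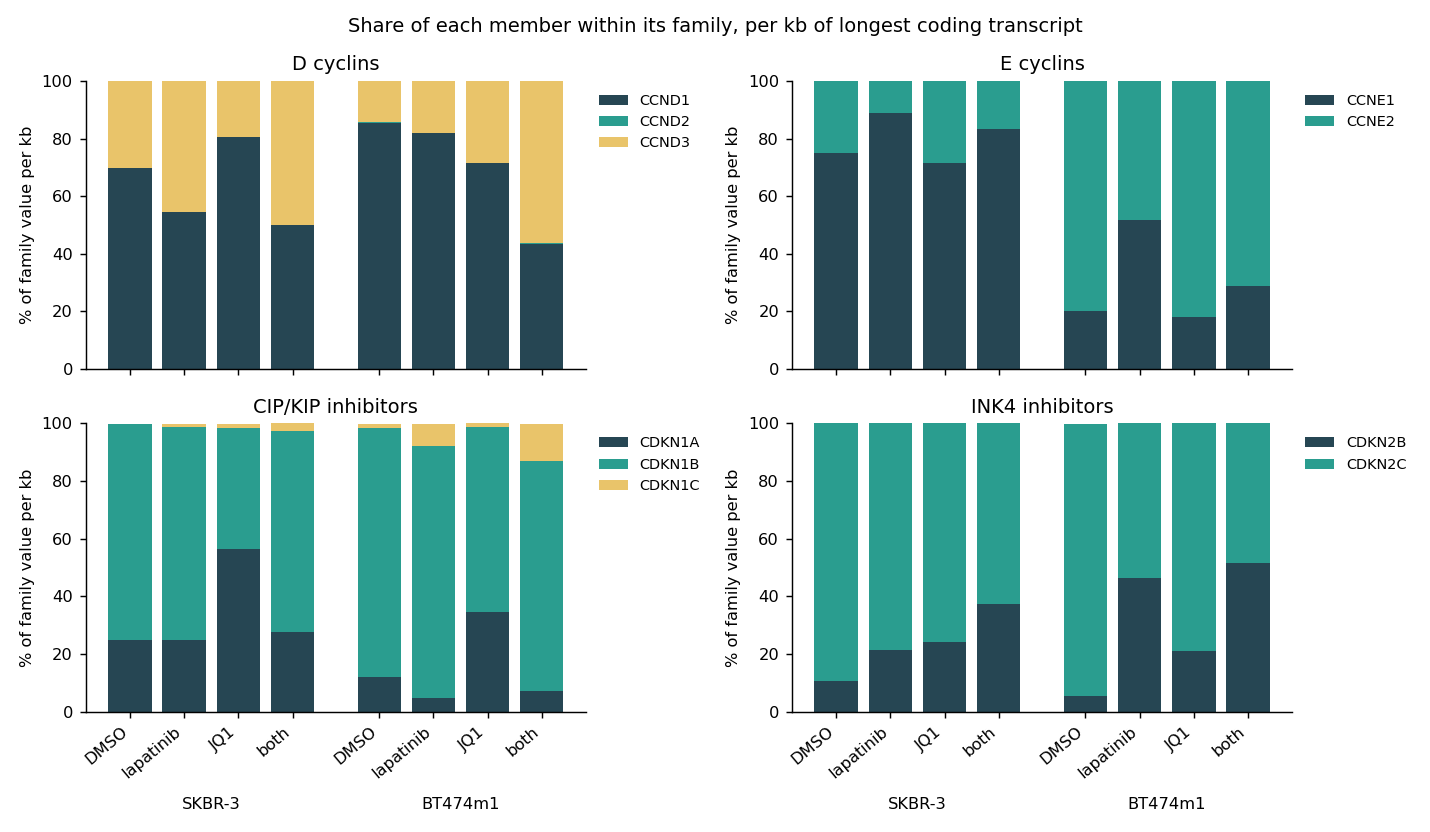
Share (%) of each member within its family, from values per kilobase of the longest coding transcript, in the 8 libraries; each bar is 1 library. The CCND1 segment is 69.9% with DMSO and 50% with both drugs in SKBR-3, against 85.6% and 43.6% in BT474m1, and CCNE2 takes 79.9% of the E-type cyclins in BT474m1 with DMSO.

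Some neighbouring levels did not differ beyond counting error. For CCND2, at a few reads or none, no neighbouring levels did, and the rest concerns the 9 members that passed the filter. In SKBR-3 these were the levels with DMSO and with JQ1 of CCND3, CCNE1 and CDKN1B, those with lapatinib and with both drugs of CCNE2, and those with JQ1 and with lapatinib of CDKN1C. In BT474m1 they were the levels with lapatinib and with both drugs of CCNE1, CDKN2B and CDKN2C, those with JQ1 and with both drugs of CDKN2B, and those with DMSO and with JQ1 of CDKN1C. Between the lines, CDKN1A with DMSO and CCND3 with both drugs could not be told apart at this depth, nor could CCNE1 with both drugs or CDKN1C with JQ1.

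The kinases and the substrate of these cyclins moved unequally. CDK2, the partner of cyclin E, stood at 822, 155, 705 and 151 in SKBR-3 with DMSO, lapatinib, JQ1 and both drugs, and at 1341, 342, 879 and 345 in BT474m1. The libraries with lapatinib were the lower pair in each line, as for CCNE1 (log2 changes with lapatinib of -2.40 and -1.97). CDK4 gave log2 changes with lapatinib of -0.83 and -0.51, and CDK6 of 0.16 and 0.53. With both drugs CDK6 fell in BT474m1 (599 to 273, log2 change -1.13) and gave -0.39 in SKBR-3. RB1, the substrate, lay between 1658 and 3083 in all 8 libraries with no change of 2-fold. CDKN2D, a further INK4 inhibitor chosen here after its values were seen, fell with lapatinib in both lines (log2 changes of -2.57 and -1.42). Against lapatinib alone it was higher with both drugs by 2.67 and 2.55 on the log2 scale, unlike CDKN2C (-0.88 and -0.06).

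Among 29 partners and targets of the G1/S machinery, lapatinib lowered 16 and raised 1 in SKBR-3, and lowered 14 and raised 1 in BT474m1, where 9.44% and 8.06% of all genes fell and 11.1% and 14.0% rose. Their median log2 change was -1.04 and -0.66, against 0.048 and 0.071 over all genes. CCNA2 (cyclin A2; -3.88 and -4.73), CDT1 (a replication licensing factor; -3.98 and -3.79), E2F2 (-3.63 and -4.26) and E2F1 (-3.48 and -4.83) fell in SKBR-3 and BT474m1. JQ1 lowered 1 and raised 0 of the 29 in SKBR-3, and lowered 5 and raised 1 in BT474m1, where 11.8% of all genes fell in each line and 3.75% and 4.81% rose, so that the 5 lay near that share. Both drugs lowered 15 and raised 0 in SKBR-3, and lowered 16 and raised 1 in BT474m1, where 20.8% and 15.3% of all genes fell and 10.8% and 14.2% rose. The 11 proliferation genes all fell with lapatinib in both lines (median log2 change -3.52 and -4.28), with MKI67 at 8462 under DMSO and 538 under lapatinib in SKBR-3, and at 2740 and 54.8 in BT474m1. CCNE1 and CCNE2 were lower in the same comparison, and the part of the proliferation genes in that was not tested. For both drugs against lapatinib, 10 of the 11 fell further in SKBR-3 (median -2.60, with 16.2% of all genes falling), where CCNE2 gave 0.15. In BT474m1 1 rose and 1 fell (5.2% and 12.5% of all genes) and their median was -0.043, where CCNE2 rose by 1.38. The one that rose there was PCNA (1.68, and 0.86 in SKBR-3), and the one that fell was BIRC5 (-1.25). PCNA was named after its values were seen.

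Genes that turn over cyclins and inhibitors or set their activity were counted as well. Of these 24, lapatinib lowered 8 for SKBR-3 and 5 for BT474m1, where 9.44% and 8.06% of all genes fell. It raised 0 of them in either line, against 11.1% and 14.0%. DTL, which directs p21 to degradation, fell (log2 -4.22 and -5.79), as did CKS1B, a cofactor of the ligase that degrades p27 (-1.90 and -3.19). SKP2, the receptor of that ligase and a gene chosen after its values were seen, gave -1.10 and -0.53. The median of the 24 was -0.26 and -0.089.

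Lists of known targets were set beside 3 of the inhibitors. Of 14 FOXO targets beside CDKN1B, lapatinib raised 11 (SKBR-3) and 6 (BT474m1) and lowered 0 (median log2 change 1.55 and 0.78), where 11.1% and 14.0% of all genes rose and 9.44% and 8.06% fell. PIK3IP1, an inhibitor of PI3K signalling, rose (2.57 and 2.60), and so did TXNIP (2.81 and 1.83), while CDKN1B itself gave 0.44 and -0.19. JQ1 raised 4 and lowered 0 of the 14 in SKBR-3 (3.75% and 11.8% of all genes), and 2 and 1 in BT474m1 (4.81% and 11.8%). Both drugs raised 12 in SKBR-3 and 9 in BT474m1 (10.8% and 14.2% of all genes) and lowered 0 (20.8% and 15.3%). CDKN1B with both drugs gave 1.01 and -0.081. Of 23 p53 targets beside CDKN1A that passed the filter, JQ1 raised 2 and lowered 2 for SKBR-3, against 1 and 3 for BT474m1, with medians of 0.045 and 0.076 where CDKN1A gave 1.96 and 1.64. These counts lay near the shares of all genes, 3.75% raised and 11.8% lowered in SKBR-3 and 4.81% and 11.8% in BT474m1. Lapatinib raised 4 and lowered 2 of the 23 in SKBR-3 (11.1% and 9.44% of all genes), and 3 and 3 in BT474m1 (14.0% and 8.06%). Both drugs raised 6 and lowered 2 in SKBR-3 (10.8% and 20.8% of all genes), and raised 6 and lowered 6 in BT474m1 (14.2% and 15.3%). TP53INP1 was the target that rose with JQ1 in both lines (1.02 and 1.06). Of 12 TGF-beta targets beside CDKN2B, both drugs raised 4 and lowered 1 for SKBR-3 (10.8% and 20.8% of all genes), against 1 and 1 for BT474m1 (14.2% and 15.3%). JQ1, with which CDKN2B rose in BT474m1, raised 0 of the 12 there and lowered 3 (4.81% and 11.8% of all genes), while 2 rose and 1 fell in SKBR-3 (3.75% and 11.8%). With lapatinib 1 rose and 0 fell in SKBR-3 (11.1% and 9.44% of all genes), whereas in BT474m1 0 rose and 2 fell (14.0% and 8.06%). BAMBI, a decoy receptor of that pathway, rose with both drugs in each line (1.06 and 1.23).

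The genes whose values ran most like those of each member were found by Pearson's r over the 8 libraries after the mean of each line was taken out, among 9841 genes. The 8 points are 4 libraries of each line, which share the line and the series of treatments, and r is a description only. For CCND1 they were RRP12, a ribosome assembly factor (r = 0.988), and WDR55 (0.977). CCND3 ran with CYCS, which encodes cytochrome c (0.996), CCNE1 with GPR172A (0.998), CCNE2 with FIGNL1 (0.997), CDKN1A with AACS (0.998), CDKN1B with GNAQ (0.98) and CDKN2C with TMEM170B (0.984). CCND2, CDKN1C and CDKN2B did not reach the level of 100 units in both lines that this measure needed. Among the members, CCND3 and CCNE2 ran most alike (r = 0.933), followed by CCND3 with CCNE1 (0.919) and CCNE1 with CCNE2 (0.907). CDKN1B ran opposite to CCND3 (-0.825) and CCNE1 (-0.821). CDKN1A and CDKN1B, both CIP/KIP inhibitors, gave -0.074.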

How the data were processed

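Poly(A) RNA of 8 cultures was sequenced, 1 library per group, with groups taken from the labels. For each gene the authors deposited a signal, the RSEM read estimate after scaling of every library to an upper quartile of 1000. The submitters' processing notes name hg19, RSEM, Picard 1.88, SAMtools 1.2, R 3.2.2, DESeq and DESeq2 1.12.3, whereas the methods text names hg38, STAR and Salmon. The labels name both a stranded and a TruSeq library kit, so that the use of strand is uncertain, and the methods text gives a shorter treatment than the 48 h of the labels, which were followed. The value of 1 read was recovered as the common step of the low values, and 83.8% to 85.2% of the values above 0 were whole reads within 0.02 reads. The rest are fractional estimates, so that no count test was run and intervals rest on rounded reads. Since the reads carry no molecular identifiers and PCR copies cannot be set apart, intervals and the floor of 3 reads cover counting error only.

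The filter kept the 14429 genes that reached 10 units in any library and removed 6102, and the pseudocount was 1. Within a line there is no test. The fit over both lines used limma 3.58.1 in R 4.3.3 (line and treatment terms, variance trend, 3 residual and 4.02 prior degrees of freedom). Other steps ran in Python 3.11.15 (scipy 1.17.1, pandas 2.3.3, numpy 2.4.6; plots with matplotlib 3.10.9). The steps were tested on simulated data. The members and gene lists were chosen with earlier results of these data known. Of each list, CDK2, CDK4, CDK6 and RB1 were named always, and otherwise genes changed 2-fold in the same direction in both lines against DMSO with a value of 100 or more in each line. At most 4 were taken for each list and contrast, ranked by the smaller change. Promoters are those of RefSeq (GRCh38.p14), transcript lengths those of GENCODE v44 in place of the planned RefSeq lengths, and neither build need be that of the tables. The settings tried besides were 10 as pseudocount, libraries scaled to equal totals or by the median of ratios, a filter at 100 or none, limma without the trend or without the line, and the shortest transcript. Counting only members whose interval excludes no change was chosen after seeing the data, as were the limma contrast and the alternatives for the sums of single drugs and the cyclin to inhibitor ratio. The comparison of protein sequences that had been planned was not made.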

Additional observations from a re-analysis of the deposited data

Results flagged for a closer look

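Of the 9 members that passed the filter, 3 moved in opposite directions in the lines in a way that counting error does not cover, with the lines at least 2-fold apart in their change. How many of all 14429 genes moved in this way was not counted, so that it cannot be said whether 3 of 9 is unusual. By sign alone, the lines shared the direction of change for 64.0% to 67.2% of those genes, depending on the comparison. With 1 library per group the difference between the lines was not tested. With JQ1, the log2 change of CCND1 was 0.844 in SKBR-3 and -0.833 in BT474m1. CDKN1A gave 0.469 in SKBR-3 and -1.524 in BT474m1 with lapatinib, and 1.256 and -0.739 with both drugs. The log2 change of CDKN1B with both drugs was 1.006 in SKBR-3 and -0.081 in BT474m1, the latter close to 0. With equal totals these became 0.919 and -0.066, just under 2-fold apart.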

How the results depend on the processing

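The counts of members past 2-fold stayed within 1.5 times their main value in all 10 treatment comparisons and in the comparison of the lines, under each alternative run. Of the counts from the fit over both lines, those for JQ1, for both drugs against lapatinib and for both drugs against the sum were 0 in every setting run, and the others moved. With lapatinib the count of 1 became 0 with no filter, 0 without the variance trend and 0 with no replicate block (no line term), and with both drugs the count of 4 became 0, 1 and 0 under the same settings. The cause was not tested. Over the 105 member changes, 100 stayed within their counting interval with a pseudocount of 10, 91 with the median of ratios and 100 with equal totals, and none of the calls changed sign. Equal totals moved the median of all genes by -0.139 (JQ1, SKBR-3) and the median of ratios by 0.115 (both drugs against lapatinib, SKBR-3). Leaving out a replicate was not possible because each group held 1 library, and the lines served as the only block. Depth limits CCND2 and the DMSO value of CDKN1C in SKBR-3, each at a few reads.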
